A study of Mus musculus with 5 samples.

Results

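The tight junction genes described here are 9: the claudins Cldn1, Cldn3, Cldn4, Cldn7, Cldn8 and Cldn12, and their partners Ocln, Tjp1 and F11r. They were chosen by symbol from the 56691 gene IDs of the count table, each was found once, and all 9 passed the filter on low counts. RNA was sequenced from keratinocytes of mouse back skin at day 28. The first group was 3 libraries of cells sorted for GFP (GFP replicates 1, 2 and 3), labelled epidermal stem cells, Lrig1 positive by genotype. The second was 2 libraries of the entire population (bulk replicates 1 and 2), labelled epidermal basal cells with a WT genotype. The sources used here do not give the reporter construct, the gates, or whether bulk animals carried the reporter. GFP 1 shares its title number with bulk 1 (4143) and GFP 2 with bulk 2 (4145), while GFP 3 (4146) has no bulk partner. The labels do not say what these numbers stand for, and they were read as animals. Under the same number the labels give a WT genotype for bulk and Lrig1 positive for sorted cells. That conflict was not resolved, and every fit with the block rests on this reading.

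Tight junctions are belts of membrane strands that seal the space between epithelial cells. Claudins form the strands, occludin and the adhesion molecule JAM-A sit beside them, and the scaffold protein ZO-1 ties them to actin. In skin the functional junction lies in the granular layer, below the cornified layer, although RNA and protein of several claudins are also found in deeper layers and in the hair follicle. Mice that lack claudin-1 lose water through the skin and die soon after birth.

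Of the 9 genes, Cldn4, Cldn1, F11r and Ocln had higher mean levels in GFP-sorted cells than in the bulk population, and Tjp1, Cldn3, Cldn7, Cldn8 and Cldn12 had lower means. Their median log2 change, GFP over bulk, was -0.12, against 0.05 over all genes tested. In an edgeR fit on all genes with no block 0 of the 9 passed an adjusted p of 0.05, against 5.28 percent of the 18583 genes tested (0.145 percent higher and 5.14 percent lower). At an unadjusted p under 0.05 there was 1 of 9, Ocln, against 15.8 percent of all genes, and the DESeq2 Wald test and limma-voom also called 0, against 8.07 and 5.52 percent. With bulk 1, bulk 2, GFP 1, GFP 2 or GFP 3 left out edgeR again called 0 of 9, against 2.65, 2.5, 4.2, 3.95 and 6.76 percent of all genes. With the title number as a block in edgeR, 4 were higher in sorted cells (Cldn1, Cldn4, Ocln and F11r) against 16.4 percent of all genes, and Tjp1 was lower, against 19.7 percent. In either direction the block gave 5 of 9, against 36 percent of all genes, so being called with the block did not set a gene apart from many others. The block compares GFP 1 with bulk 1 and GFP 2 with bulk 2. GFP 3 adds nothing to it, and 1 degree of freedom is left for each gene's own spread. The edgeR test adds to this a spread shared over genes. With the block its p-values and intervals rest mostly on that shared spread, and little on each gene's own spread between the pairs.

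The members' calls under the block also depended on how each library's trend with transcript length and GC content was treated. The trend was removed in 2 ways, and without the block 0 of 9 were called in either, against 7.37 and 5.8 percent. The first called Cldn1, Cldn4, Ocln and F11r higher and 0 lower with the block, against 47.5 and 10 percent of all genes (4 of 9 in either direction, against 57.5 percent), and put the median log2 change of all genes at 0.42. The second, centred so that no library's overall level moved, was chosen after that outcome had been seen. It called Cldn1, Cldn4 and Ocln higher and Cldn3 lower, against 16.2 and 14.9 percent of all genes, or 4 of 9 against 31.1 percent in either direction. Cldn1, Cldn4 and Ocln were thus called higher in all 3 fits with the block, while F11r, Tjp1 and Cldn3 were not called in all of them.

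The DNA just before the transcription start is shown for 3 of the 4 members that were higher with the block, to set the members that hold an AP-1 motif beside one that does not. These 3 and the motif in capitals were chosen after the matches of 5 motifs had been seen, and the windows of Ocln, which hold no TGANTCA, are not printed. The windows are RefSeq entries on GRCm38.p6 and hold the 250 bases before the start, 5′ to 3′ on the gene's strand. They are chr5:134946935-134947184 (minus strand) for Cldn4, chr1:171437311-171437560 (plus strand) for F11r and chr16:26371840-26372089 (minus strand) for Cldn1. Capitals mark TGANTCA, the binding motif of AP-1 factors, searched on both strands.
Cldn4: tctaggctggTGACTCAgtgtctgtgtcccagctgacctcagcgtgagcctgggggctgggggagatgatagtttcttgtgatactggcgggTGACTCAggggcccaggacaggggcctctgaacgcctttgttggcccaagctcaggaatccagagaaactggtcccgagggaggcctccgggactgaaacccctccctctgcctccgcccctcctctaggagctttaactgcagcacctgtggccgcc
F11r: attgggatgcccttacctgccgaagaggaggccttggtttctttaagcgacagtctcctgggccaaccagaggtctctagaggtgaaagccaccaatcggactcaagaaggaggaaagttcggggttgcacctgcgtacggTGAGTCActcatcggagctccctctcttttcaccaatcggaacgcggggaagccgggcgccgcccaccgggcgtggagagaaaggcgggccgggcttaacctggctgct
Cldn1: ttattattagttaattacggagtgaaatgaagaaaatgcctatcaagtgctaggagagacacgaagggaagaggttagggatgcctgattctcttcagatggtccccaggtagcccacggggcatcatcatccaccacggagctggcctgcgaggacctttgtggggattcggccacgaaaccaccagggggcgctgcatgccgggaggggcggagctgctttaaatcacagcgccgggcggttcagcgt
The motif begins 240 and 158 bases before the start of Cldn4 and 109 bases before that of F11r, and these letters are not in the Cldn1 window. RefSeq windows were at hand for 8 of the members, 12 windows in all, and TGANTCA was in those of 2 members, Cldn4 and F11r, against 6.75 percent of all 32851 windows. CAGGTG, an E-box read by Snail and Zeb proteins, was in windows of 4 members (Cldn4, F11r, Cldn7 and Ocln), for Cldn7 and Ocln in 1 of their 2 windows, against 17.2 percent of all windows. GGGCGG, the GC box, was in a window of all 8, against 32.7 percent of all windows. For Cldn7 it was in 1 of 2 windows and for Cldn12 in 2 of 3. AACCNGTT, the motif of Grainyhead-like factors, and TATAAA were in windows of 0 members, against 1.79 and 12.4 percent. A member was counted if any of its windows held the letters, while the shares are per window, so these are unlike measures. All 5 motifs were searched on both strands, their letters do not overlap in the windows shown, and a match says only that the letters are there.

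**Figure D1:**
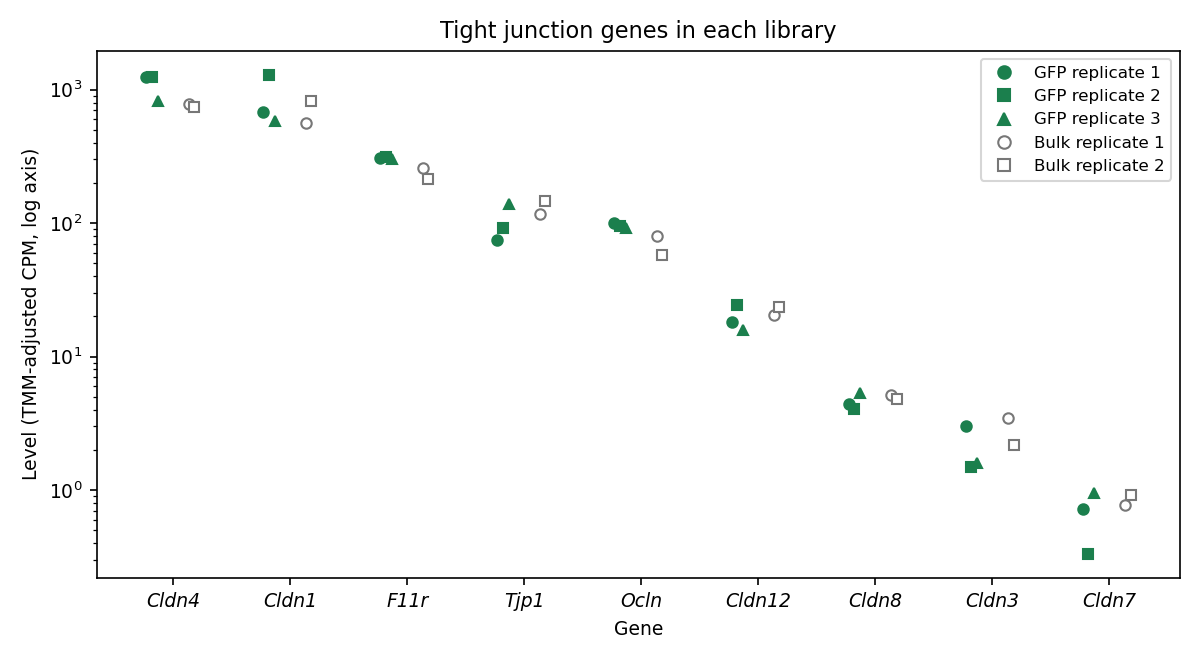
Level of each of the 9 genes in each library, as TMM-adjusted CPM on a log axis, with GFP libraries as filled and bulk libraries as open symbols and the same shape for the same replicate number. Cldn4, Cldn1 and F11r lie above 200 CPM in each library, Cldn3, Cldn7 and Cldn8 below 6 CPM, and the groups stay apart for Cldn4, F11r and Ocln.

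Levels are given as CPM, the usual library-scaled read count, with TMM adjustment. The claudin RNA of both groups was mostly Cldn4 and Cldn1. To compare genes with each other, CPM was divided by the length of the longest annotated transcript. On that scale Cldn4 was first of the 9 in each library, followed by Cldn1 and then F11r. Cldn4 and Cldn1 together made up 83.5, 85.5 and 77.6 percent of the summed CPM per kb of the 9 genes in GFP 1, 2 and 3, against 79.1 and 82.3 percent in bulk 1 and 2. F11r followed with 10.6 to 15.8 percent in GFP libraries and 11.5 to 14.3 percent in bulk. Cldn7 was last in each library, at 0.249 to 0.706 CPM per kb in GFP libraries and 0.576 to 0.692 in bulk. Cldn3 and Cldn8 changed places between libraries. The middle of the order also moved: Ocln stood above Tjp1 in 4 libraries and below it in bulk 2 (14.2 against 20.9 CPM per kb).

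**Figure D2:**
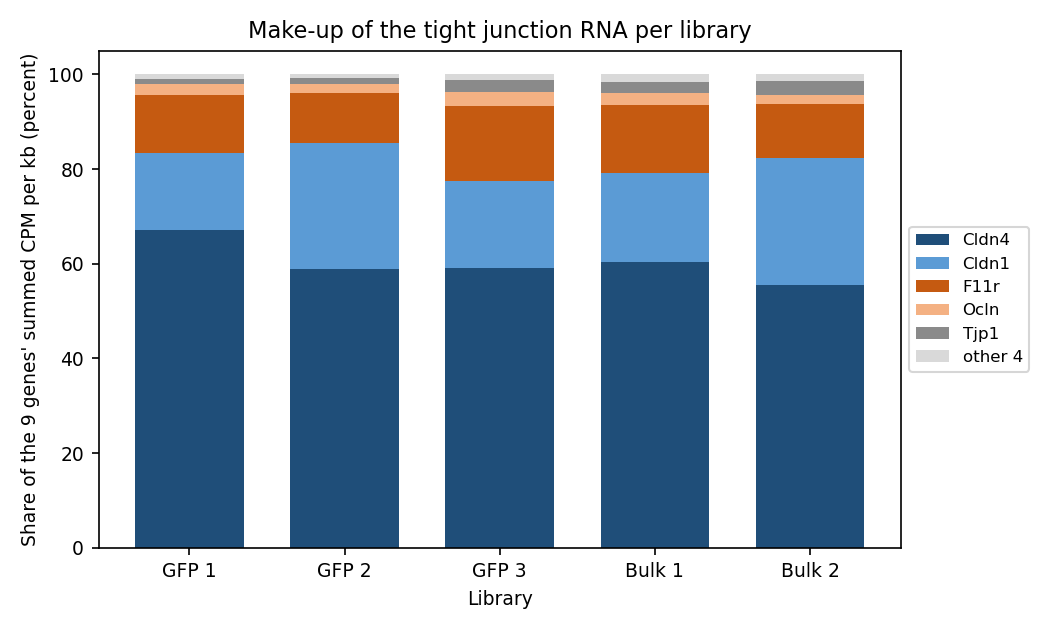
Share of each gene in the summed CPM per kb of the 9 genes, in percent, for the 3 GFP and 2 bulk libraries. Cldn4 takes 58.9 to 67.2 percent in GFP libraries and 55.5 to 60.4 percent in bulk, and Cldn1 takes more in GFP 2 and bulk 2 (26.6 and 26.8 percent) than in the other 3.

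Cldn4 encodes a claudin found mainly in suprabasal layers of the epidermis and a receptor of a clostridial enterotoxin. It was at 1241, 1253 and 821 CPM in GFP 1, 2 and 3, against 787 and 744 CPM in bulk 1 and 2. Every GFP value exceeded every bulk value, although GFP 3 was only a little above bulk 1. Group means were 1105 ± 246 CPM in sorted cells and 766 ± 30.5 CPM in bulk (SD, n = 3 and 2). The log2 change was 0.53 ± 0.27 (SE), with a 95 percent interval from -0.10 to 1.16, and did not pass in edgeR (adjusted p = 0.413). With the block Cldn4 rose, by 0.70 ± 0.16 on the log2 scale (edgeR adjusted p = 8.3e-05). The pairs gave close ratios, 1.58 for GFP 1 over bulk 1 and 1.68 for GFP 2 over bulk 2. Cldn4 and Cldn3 are neighbours on chromosome 5, and Cldn3 had lower means in sorted cells.

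Cldn1, the claudin that the skin barrier of newborn mice depends on, had 683, 1295 and 584 CPM in GFP 1, 2 and 3, against 558 and 820 CPM in bulk 1 and 2. The groups overlapped, and within each group the library numbered 4145 was highest. The spread was wide, at 854 ± 385 CPM in sorted cells and 689 ± 186 CPM in bulk (SD, n = 3 and 2). The log2 change of 0.31 ± 0.38 was not called (edgeR adjusted p = 0.748), and without GFP 2 it was -0.12. With the block it was called, at 0.48 ± 0.16 (edgeR adjusted p = 0.00956), with ratios of 1.22 and 1.58 in the pairs. The ratio of Cldn4 to Cldn1 CPM was 1.82, 0.968 and 1.40 in GFP 1, 2 and 3, against 1.41 and 0.907 in bulk 1 and 2. In both groups the ratio was lower in the library numbered 4145 than in the one numbered 4143.

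The other claudins of the set were scarce. Cldn12, an unusual claudin that lacks the C-terminal motif by which most claudins bind ZO-1, was at 18.3, 24.4 and 15.7 CPM in GFP 1, 2 and 3, against 20.4 and 23.5 CPM in bulk 1 and 2. The groups overlapped, and the log2 change was -0.18 ± 0.24 (95 percent interval from -0.72 to 0.37), so changes within that interval could not be told from none. Cldn8, known in mouse kidney as a barrier to cations, had 4.42, 4.04 and 5.32 CPM in GFP 1, 2 and 3, against 5.18 and 4.80 CPM in bulk 1 and 2, and these also overlapped.

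Cldn3, like Cldn4 an enterotoxin receptor, had 3.01, 1.49 and 1.60 CPM in GFP 1, 2 and 3, against 3.44 and 2.18 CPM in bulk 1 and 2. GFP 1 lay between the bulk libraries, and GFP 2 and 3 lay below both. These levels rest on 99 to 238 counts in GFP libraries and 206 and 243 in bulk. Cldn3 shares 40 exon bases with Wbscr25, an antisense gene on the opposite strand, and without stated strandedness their reads could not be separated there. Cldn3 was not called with the block (-0.36 ± 0.23, edgeR adjusted p = 0.224). With the trend also removed it was -0.18 ± 0.21 the first way (edgeR adjusted p = 0.494) and -0.57 ± 0.21 with the centred trend, which passed (0.0472).

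Cldn7, which in other epithelia binds EpCAM along the lateral membrane, had 57, 22 and 88 counts in GFP 1, 2 and 3, against 46 and 103 in bulk 1 and 2. That is 0.722, 0.332 and 0.943 CPM in sorted cells, against 0.769 and 0.924 CPM in bulk. GFP 2 was lowest and the other 4 libraries lay close together. The log2 change was -0.34 ± 0.49, with an interval from -1.48 to 0.80, and the highest sorted library was 2.84 times the lowest, so no change could be told from the spread between libraries.

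Among the partners, Ocln and F11r were the steadiest in sorted cells. Ocln encodes occludin, a strand protein with 4 membrane passes that is not needed to form strands. It had 100.4, 95.6 and 92.4 CPM in GFP 1, 2 and 3, against 79.8 and 57.5 CPM in bulk 1 and 2, and the groups did not overlap. The log2 change of 0.49 ± 0.20 had an interval from 0.02 to 0.95 but did not pass over all genes (edgeR adjusted p = 0.294, unadjusted 0.0433). With the block it was 0.53 ± 0.14 and passed (edgeR adjusted p = 0.0009999).

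F11r encodes JAM-A, an immunoglobulin-type adhesion molecule that helps to place polarity proteins at the junction. It was at 310.1, 311.6 and 304.1 CPM in GFP 1, 2 and 3, against 258.6 and 214.6 CPM in bulk 1 and 2. The sorted libraries lay within 1.02-fold of each other and above both bulk libraries. The log2 change was 0.38 ± 0.20 without the block (edgeR adjusted p = 0.415) and 0.40 ± 0.15 with it (0.0208). With the trend removed as well, F11r was called the first way, at 0.71 ± 0.14 (edgeR adjusted p = 4.35e-05), and missed the threshold with the centred trend, at 0.35 ± 0.13 (0.0502). Cldn4, Ocln and F11r were the 3 of 9 members in which every sorted library exceeded every bulk library, against 14.6 percent of all genes tested, and 0 of 9 had the reverse order, against 18.5 percent. Groups that did not overlap were thus as frequent among the members, at 3 of 9, as among all genes, at 33 percent.

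Tjp1, the gene of the scaffold ZO-1, was at 74.3, 92.5 and 138 CPM in GFP 1, 2 and 3, against 116 and 147 CPM in bulk 1 and 2. GFP 1 and 2 lay below both bulk libraries and GFP 3 between them, so the groups overlapped. The log2 change of -0.37 ± 0.28 did not pass (edgeR adjusted p = 0.581). Within the pairs the ratios were 0.640 and 0.629, and with the block Tjp1 fell by 0.66 ± 0.14 on the log2 scale (edgeR adjusted p = 3.58e-05). Tjp1 has the longest transcript of the 9, at 7049 bases, and the libraries differed in their trend with length. Across genes, GFP over bulk ratios had a Spearman rho with length from -0.328 (GFP 1 over bulk 2) to 0.0562 (GFP 3 over bulk 1). With the block and that trend removed Tjp1 was not called either way. It was at 0.01 ± 0.13 the first way (edgeR adjusted p = 0.939), where the median of all genes was 0.42, and at -0.30 ± 0.12 with the centred trend (0.064). The part of the length trend in the Tjp1 change was not otherwise tested.

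**Figure D3:**
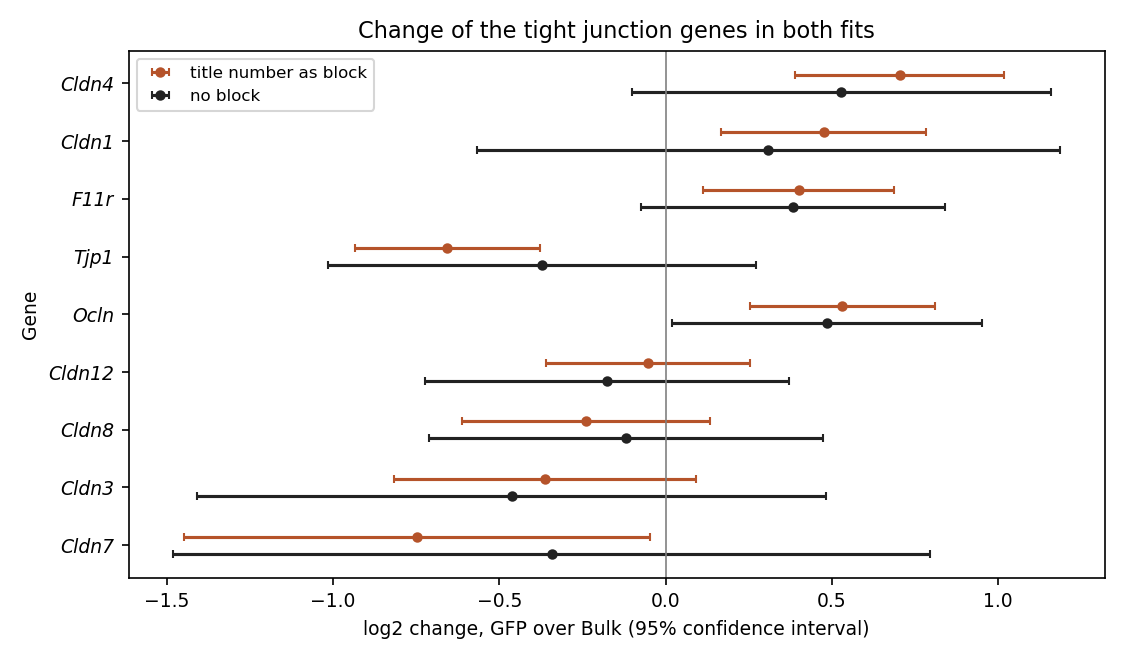
Log2 change of each gene, GFP over bulk, with its 95 percent confidence interval, with the title number as a block (upper, brown) and without it (lower, black), in edgeR. Without the block 8 of the intervals include 0, Ocln being the exception. With it the intervals of Cldn4, Cldn1, F11r and Ocln lie above 0 and those of Tjp1 and Cldn7 below, and Cldn7 did not pass after adjustment over all genes (0.0892).

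The rest of the junction held genes that fell in sorted cells. Of 7 other claudins that passed the count filter, 3 fell and 0 rose in edgeR without the block, against 5.14 percent of all genes lower and 0.145 percent higher, shares that also apply to the lists that follow (median log2 change -1.36, against 0.05 over all genes tested). With bulk 2 left out 1 of the 7 fell. Cldn10, a pore-forming claudin known from kidney and sweat gland, had 10, 9 and 26 counts in GFP 1, 2 and 3, against 177 and 431 in bulk 1 and 2. It fell by 4.21 ± 0.45 on the log2 scale (edgeR adjusted p = 0.00148). Cldn14, known as a deafness gene of the inner ear, had 1 count over the sorted libraries and 99 over bulk, a ratio of 0.00725 per library size (95 percent counting interval from 0.000182 to 0.0413). Cldn5, the claudin of blood vessel endothelium, had 2 counts against 56 (ratio 0.0256, from 0.00303 to 0.097). The Cldn14 call did not hold without bulk 2 (edgeR adjusted p = 0.0925), nor that of Cldn5 without bulk 1 or bulk 2 (0.123 and 0.0929). With the block 4 of the 7 fell and 0 rose, against 19.7 and 16.4 percent of all genes. Cldn23, the most abundant of the 7, was among these 4. It was at 7.12, 4.43 and 3.50 CPM in GFP 1, 2 and 3, against 17.0 and 8.77 CPM in bulk 1 and 2. The log2 change of Cldn23 was -1.36 ± 0.38 without the block and was not called (edgeR adjusted p = 0.102, against 2.36e-09 with it). A further 11 of the 18 other claudins in the table did not pass the filter, and 2 of these, Cldn22 and Cldn34a, had no count in any library. Counting intervals cover counting error only. In such tissue samples, fewer cells of a type and less RNA per cell cannot be told apart.

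Among 11 other membrane proteins of the junction, Jam2, a JAM of vessels and lymph nodes, fell and 0 rose (list median 0.20). It had 7, 9 and 8 counts in GFP 1, 2 and 3, against 37 and 92 in bulk 1 and 2, and was not called without bulk 1 or bulk 2 (edgeR adjusted p = 0.0626 and 0.168). With the block 2 rose and 3 fell, against 16.4 and 19.7 percent of all genes. Cxadr, Marveld2 and Lsr, the coxsackie and adenovirus receptor and the tricellular proteins tricellulin and angulin-1, were not called in edgeR without the block or with the block alone. With the block and the trend removed, Cxadr was called higher both ways (edgeR adjusted p = 0.000153 the first way and 0.0466 with the centred trend), and Marveld2 the first way (0.0190). Cxadr was at 251 ± 42.2 CPM in sorted cells and 215 ± 11.7 CPM in bulk (SD, n = 3 and 2).

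Of 23 plaque and polarity genes 2 fell and 0 rose (median -0.12). Cgn encodes cingulin, which links ZO proteins to myosin and microtubules, and it had 11.6, 19.1 and 14.0 CPM in GFP 1, 2 and 3, against 54.7 and 59.3 CPM in bulk 1 and 2. Every sorted library lay far below bulk, and Cgn fell by 1.94 ± 0.24 on the log2 scale (edgeR adjusted p = 0.00286). Tjp3, which encodes ZO-3, fell by 0.81 ± 0.19 (edgeR adjusted p = 0.048), with 51.5 ± 6.77 CPM in sorted cells and 90.1 ± 3.12 CPM in bulk. That call was lost without bulk 1, bulk 2, GFP 1 or GFP 2 (edgeR adjusted p from 0.102 to 0.247). With the block 2 of the 23 rose and 7 fell, against 16.4 and 19.7 percent of all genes. With the centred trend also removed 4 rose and 3 fell, against 16.2 and 14.9 percent, and with the trend removed the first way 14 rose and 2 fell, against 47.5 and 10 percent.

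**Figure D4:**
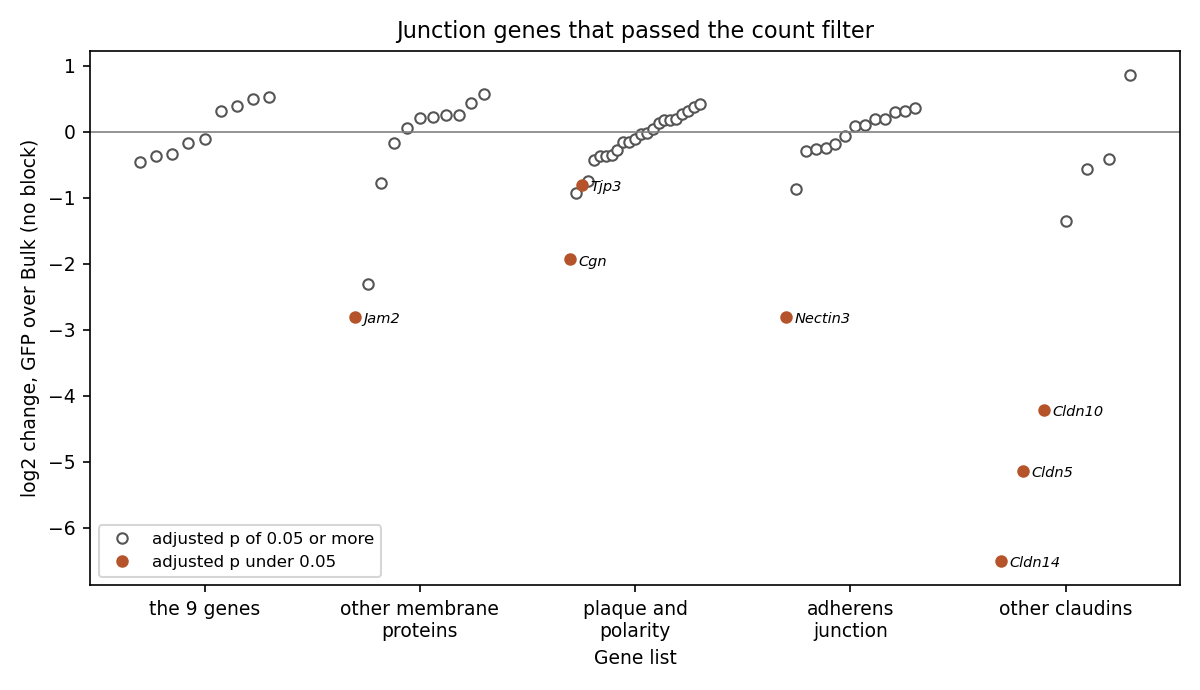
Log2 change, GFP over bulk, of each junction gene that passed the count filter, by list, in edgeR without the block. Filled points had an adjusted p under 0.05, all of them below 0: Jam2, Tjp3, Cgn, Nectin3, Cldn10, Cldn5 and Cldn14, while the 9 genes lie between -0.46 and 0.53.

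In the adherens junction, the cadherin belt below the tight junction, 1 of 14 genes fell and 0 rose (median 0.01). Nectin3 encodes an immunoglobulin-type adhesion protein. It was at 1.90, 1.64 and 2.46 CPM in GFP 1, 2 and 3, against 18.6 and 9.47 CPM in bulk 1 and 2, and fell by 2.80 ± 0.34 (edgeR adjusted p = 0.00277). The E-cadherin gene Cdh1, the main cadherin of these cells, was at 1371 CPM on average in sorted cells and 1122 CPM in bulk and was not called with the block alone or without it (edgeR adjusted p = 0.1275 and 0.657). With the block and the trend removed it was called higher, the first way at an edgeR adjusted p of 0.0001065 and with the centred trend at 0.0316.

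Of 13 tested transcription factors that act on claudin or other epithelial junction genes, Zeb1 and Zeb2 fell and 0 rose in edgeR (median 0.27). Both are repressors of epithelial genes. DESeq2 and limma-voom each called 1 of the 13 higher and 3 lower, against 8.07 and 5.52 percent of all genes in either direction. Zeb1 had 5, 1 and 8 counts in GFP 1, 2 and 3, against 81 and 186 in bulk 1 and 2. Zeb2 was not called without bulk 1 or bulk 2 (edgeR adjusted p = 0.0585 and 0.0655). With the block 6 rose and 4 fell, against 16.4 and 19.7 percent of all genes. Of 9 membrane proteases, their inhibitors and claudin regulators 0 were called in edgeR without the block, DESeq2 or limma-voom. At an unadjusted edgeR p under 0.05 there were 2, against 15.8 percent of all genes. They were St14, the matriptase gene, and Spint1, an inhibitor of matriptase, both lower in sorted cells. With the block 3 of the 9 rose and 2 fell, against 16.4 and 19.7 percent of all genes. Those that fell were St14 and Spint1 (edgeR adjusted p = 0.0107 and 0.0115). Epcam, whose protein binds claudin-7, was at 428 ± 117 CPM in sorted cells and 299.9 ± 5.59 CPM in bulk. It was called higher with the block (edgeR adjusted p = 2.69e-05, against 0.43), and is named here after its values were seen.

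The groups also differed in the levels of genes that mark cell layers and cell types. In the suprabasal list 15 of 25 genes fell and 0 rose, and the list summed to 11570, 16380 and 14260 CPM (library size scaling) in GFP 1, 2 and 3, against 37000 and 30390 CPM in bulk 1 and 2. Without bulk 1 only 9 of the suprabasal genes fell. Of 13 basal layer genes 0 were called in edgeR without the block. An unadjusted edgeR p under 0.05 was found for 5, against 15.8 percent of all genes. DESeq2 called 2 and limma-voom 0, against 8.07 and 5.52 percent of all genes in either direction. In the fits with the block that called members, 8 basal genes were higher, 13 with the first trend and 12 with the centred trend removed, against 16.4, 47.5 and 16.2 percent of all genes. In the same fits 24, 22 and 24 of the 25 suprabasal genes were lower, against 19.7, 10 and 14.9 percent of all genes. In each of them 1 suprabasal gene was higher. The basal list summed to 41540, 36190 and 38350 CPM in GFP libraries, against 24930 and 28310 CPM in bulk. The endothelial list summed to 3.15 to 3.73 CPM in GFP libraries and 9.19 and 9.47 CPM in bulk, with Cldn5, Emcn and Kdr at 0 in at least 1 sorted library. The Langerhans and myeloid list summed to 345 to 531 CPM in GFP libraries and 711 and 714 CPM in bulk. Its median log2 change was -3.38, and in 1 of its 12 genes every sorted library exceeded every bulk library. That sum thus does not show how far most genes of the list fell. In the list for hair matrix and inner root sheath all 16 genes fell, as did 9 of 10 melanocyte, 11 of 12 Langerhans and myeloid, 9 of 10 T cell, 5 of 5 red blood cell, 4 of 13 sebaceous gland, 3 of 9 endothelial and 2 of 8 fibroblast genes. Without bulk 1 or bulk 2 the endothelial count was 0 and the fibroblast count 1, and without bulk 1 the sebaceous gland count was 1. Of 9 upper follicle and 6 sweat gland and simple epithelium genes 0 were called in edgeR without the block. At an unadjusted edgeR p under 0.05 there were 3 and 2, against 15.8 percent of all genes. DESeq2 called 1 of each list higher, against 8.07 percent of all genes in either direction. With the block 8 of the 9 and 4 of the 6 were higher, against 16.4 percent of all genes. Lrig1, the gene that the sorted cells are named for, was at 210, 226 and 213 CPM in GFP 1, 2 and 3, against 163 and 155 CPM in bulk 1 and 2, and was called higher with the block (edgeR adjusted p = 0.00676, against 0.292 without it). The basal keratinocyte keratins Krt5 and Krt14 were at 8995 and 5452 CPM or more in every library. The part of these differences in the members' values was not tested.

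Total counts were 85307002, 71410484 and 89080100 in GFP 1, 2 and 3, against 56829330 and 105887450 in bulk 1 and 2. GFP 3 had 53714 counts of Xist, the RNA that silences an X chromosome in females, against 0 to 8 in the other libraries. Ddx3y, a Y chromosome gene, had 62 counts in GFP 3. It had 1773 and 1750 in GFP 1 and 2 and 2212 and 4462 in bulk 1 and 2. The labels give no sex. By these RNAs GFP 3 read as female and both bulk libraries as male, so sex was not matched between the groups. Without GFP 3 the log2 changes were 0.70 for Cldn4 and -0.66 for Tjp1, and 0 of the 9 were called in edgeR.

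The genes whose profile over the 5 libraries was most like a member's were sought among the 9081 genes whose log2 CPM averaged 3 or more, by the root mean square difference of log2 CPM after each gene was centred on its mean. For Cldn1 the nearest were Errfi1 (0.0786), which encodes an inhibitor of EGF receptors, and Plat (0.0884), the tissue plasminogen activator gene. Errfi1 was at 567, 932 and 442 CPM in GFP 1, 2 and 3, against 418 and 672 CPM in bulk 1 and 2, highest in the same library of each group as Cldn1. For Tjp1 they were Eml4 (0.0419) and Zdhhc21 (0.0545), and for Cldn4 F8a (0.0337) and H3f3b (0.0344), a histone H3.3 gene. With 5 libraries and this many candidates, near matches describe these libraries and carry no test.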

How the data were processed

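RNA was extracted with Trizol and libraries were made by a sequencing centre's protocol, per the labels' protocols. STAR and the build GRCm39 are named in the submitters' processing notes. For the counter, the annotation release and strandedness, nothing is given in the sources used here. The authors deposited raw counts per Ensembl ID for 5 libraries, with 56829330 to 105887450 counts each. Within groups, replicates differed by 152.16 to 461.32 chi-square units per degree of freedom, so none was a repeat deposit. The labels name no separate animals or cultures beyond the title numbers, so p-values measure at most the spread between these libraries. In edgeR each gene's spread is moderated toward a spread shared over genes. With the block, p-values rest mostly on the shared spread.

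Symbols came from a gene name table (52073 of 56691 IDs matched). Genes were filtered with filterByExpr (minimum count 10, total 15), scaled with TMM and tested with the edgeR 4.0.16 quasi-likelihood test in R 4.3.3, two-sided, with Benjamini-Hochberg adjustment over all 18583 genes at 0.05. SE is the log2 change over the square root of F. DESeq2 1.42.0, limma 3.58.1 (voom), other scalings and filters, a title number block, removal of the length and GC trend (loess, span 0.3) and leaving out each library were alternatives. The first version of the trend removal raised the median of all genes. A robust version centred to a median of 0 per library was added after its results were seen, so both are given. The fit was tested on simulated data. Across 18583 genes, the differences GFP 1 minus GFP 2 and bulk 1 minus bulk 2 had a Pearson r of 0.4743. This is the check of the pairing, which rests on the title numbers alone. Transcript lengths and GC are of the longest GENCODE M21 transcript, for 97.44 percent of the genes tested.

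The members and all 18 other lists were chosen with earlier results of these data known. All members are named. Of other lists, up to 4 called genes with the smallest p are named, or the 2 smallest where none was called. Cldn23, Cxadr, Marveld2, Lsr, Cdh1 and Epcam were named outside this rule after their values were seen. Lrig1, Krt5, Krt14, Xist and Ddx3y serve to check the labels.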

Additional observations from a re-analysis of the deposited data

How the results depend on the processing

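Of the recomputed changes of the 9 members under 16 alternatives, 123 kept their direction and side of the threshold, 13 became called and 7 changed sign. The block gave 5 members called, and 4 with the trend removed in either version, against 0 without it. Both versions gave 4, but not the same genes: the first called F11r, and the centred one, chosen after seeing the data, called Cldn3. Changes of sign were Cldn1 without GFP 2 (-0.1202, against up to 0.5996 with another library left out) and, with the first trend version, Cldn8 (0.0411, and 0.1006 with the block), Cldn12 (0.0916 and 0.3009) and Tjp1 (0.1350 and 0.0127). In those fits the median of all genes was 0.38 and 0.42, and the centred trend changed no sign. Over all genes, 982 were called without the block, against 6692 with the replicate block, 10420 with block and first trend, 5631 with block and centred trend, 1499 by DESeq2 and 1918 with no filter. Leaving out 1 library gave 480 to 1205 genes and 0 members. The share of calls that were higher was 2.75 percent, against 45.4 with the block, 82.6 with block and first trend, 51.9 with block and centred trend, 38.9 with the first trend alone, 12.5 by DESeq2 and 13.5 with no filter. The cause of these shifts was not tested. With 1 bulk library left out, the lone one is assumed to vary like the sorted libraries. Cldn7 rests on 22 to 103 counts a library.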
